A study of Mus musculus with 12 samples.

Results

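The distal convoluted tubule and the connecting tubule that follows it are the segments of the nephron where the last adjustments to urinary sodium chloride, calcium and magnesium begin. The 10 genes described here encode transporters, binding proteins, kinases and an adaptor protein of these segments: Slc12a3, Wnk1, Wnk4, Klhl3, Stk39, Trpm6, Trpv5, Calb1, Slc8a1 and Pvalb. They were taken by gene symbol from a table of 33188 genes measured in mouse kidney. Each symbol had a single row, and all 10 were among the 19772 genes with enough counts to be tested.

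The study compared 3 groups of 4 strand-specific RNA-seq libraries from whole kidney of wild-type (WT) mice. CTL was the control group. HUA was a model of hyperuricemia made with potassium oxonate, which blocks uricase, and hypoxanthine, a purine that is turned into uric acid. XZSW kidneys came from that model with Xin-Zi-Sheng-Wan decoction added, so HUA and XZSW share both agents. Strain, sex, age, dose and time are not analysed here. Whether the 4 samples within each group were different animals is not stated in the labels, so p-values here describe sample-to-sample spread that could be technical. The table's columns are named C, N and M, and the sample descriptions alone tie them to CTL, HUA and XZSW. If N and M were exchanged, the HUA and XZSW values below would be exchanged too.

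In the distal convoluted tubule, sodium and chloride enter through the thiazide-sensitive cotransporter NCC, the product of Slc12a3. The kinases WNK1 and WNK4 act on SPAK (Stk39), which phosphorylates and activates NCC, and KLHL3 is the adaptor that brings WNK kinases to a CUL3 ubiquitin ligase for removal. Magnesium enters through channels that contain TRPM6. Calcium enters through TRPV5, is carried across the cell by calbindin (Calb1) and leaves through the sodium-calcium exchanger NCX1 (Slc8a1) and calcium pumps. Parvalbumin (Pvalb) is a calcium-binding protein of the early distal convoluted tubule and of fast skeletal muscle.

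In HUA kidneys, transcripts of the entry channels Trpv5 and Trpm6 rose and Pvalb fell. In XZSW kidneys, Trpv5 fell from its HUA level and was still above CTL, Pvalb rose to levels that overlapped CTL, and Slc12a3, Wnk4, Calb1 and Klhl3 rose from HUA. Slc12a3 and Wnk4 also rose above CTL. These are levels of RNA in whole kidney, so a change in the number of cells of a segment and a change in RNA per cell cannot be told apart.

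Library totals were 51.6 to 74.3 M counts, and levels are given as CPM, counts for each 1 M counts of the library, with the library size corrected by TMM, which evens out differences in RNA composition between libraries. The libraries also differed in how their counts followed base composition. Slopes were fitted to each library's log2 difference from the CTL mean, on GC content and gene length together. The CTL slopes are therefore centred by construction, and what the slopes reflect was not tested. In HUA2, HUA3, HUA4, XZSW3 and XZSW4 the slopes were 0.22 to 0.33 on the log2 scale per 10% of GC content. The other 7 libraries had slopes of -0.04 to 0.07. The first 5 are called high GC slope libraries below, and the other 7 low GC slope libraries. HUA1 is the only HUA library among those 7. In HUA1, XZSW1 and XZSW2, counts relative to the CTL mean increased with gene length. These length slopes were 0.23, 0.16 and 0.12 on the log2 scale per doubling of length. Summed markers of the proximal tubule (5 genes) were 5245 to 7245 CPM in CTL, 940.3 to 3778 CPM in HUA and 5863 to 8113 CPM in XZSW. Those of tubular injury (5 genes) were 370.4 to 422 CPM, 3510 to 9458 CPM and 772 to 1021 CPM, in the same order. None of these 10 markers was at 0 in all libraries of a group. Their part in the results on distal genes was not tested.

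Slc12a3 and Wnk4, the members that rose in XZSW against both other groups, are shown first by the DNA just upstream of their transcript starts, because both rose there. The windows are the 250 bases before the start in RefSeq (GRCm38.p6, both on the plus strand), at chr8:94328958-94329207 for Slc12a3 and chr11:101260317-101260566 for Wnk4, written 5′ to 3′. Capitals mark matches to the TATA box (TATAAA) and to the AP-2 site (GCCNNNGGC).
Slc12a3: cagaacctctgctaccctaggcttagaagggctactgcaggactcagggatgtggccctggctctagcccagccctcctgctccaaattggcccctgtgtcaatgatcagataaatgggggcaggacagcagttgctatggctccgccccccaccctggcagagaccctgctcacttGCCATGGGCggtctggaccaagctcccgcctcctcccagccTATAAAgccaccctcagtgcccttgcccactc
Wnk4: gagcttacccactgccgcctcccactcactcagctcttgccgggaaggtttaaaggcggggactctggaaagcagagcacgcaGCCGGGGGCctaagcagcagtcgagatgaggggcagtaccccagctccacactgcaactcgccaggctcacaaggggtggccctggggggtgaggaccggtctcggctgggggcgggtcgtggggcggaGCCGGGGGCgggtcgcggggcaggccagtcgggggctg
Slc12a3 had a TATAAA that began 32 bases before the start, and Wnk4 had none. Over windows that also held the 50 bases after the start, 9 of the 10 members had an entry, with 10 windows in all. TATAAA, searched on both strands, was in 2 of these 10 windows, those of Slc12a3 and Trpv5, and in 13.6% of 32851 RefSeq windows of this length. GCCNNNGGC, which reads the same on both strands, was in 7 of 10 windows and in 16.6% of all windows. G and C made up 60.3% of the Slc12a3 window and 70.7% of the Wnk4 window over 300 bases. The GC content of all windows was not compared with that of the members. The 7 windows with GCCNNNGGC included both windows of Pvalb. They also included those of Stk39 and Wnk1, genes without a call in any comparison. They left out that of Klhl3, which rose in XZSW against HUA. GTTAAT and AGGTCA were in none of the 10 windows, against 7.10% and 16.3% of all, and AGAACA was in 1, against 19.0%. The 5 motifs were chosen after the members' results had been seen, and a match is a run of letters, not a shown binding site.

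FPKM divides counts by a length for each gene. The lengths behind the deposited FPKM were not checked, and the order of genes below depends on them. In CTL, Slc12a3 was at 566 CPM and Calb1 at 264 CPM, with longest annotated transcripts of like length, 4310 and 4222 bases. By FPKM, Calb1 stood highest in CTL at 43.0 ± 3.10 FPKM (mean ± SD, n = 4). It was followed by Slc12a3 at 40.3 ± 6.44, Wnk4 at 29.2 ± 1.86, Pvalb at 28.6 ± 2.71 and Wnk1 at 10.4 ± 0.774. The lower members in CTL were Stk39 at 6.59 ± 0.362 FPKM, Klhl3 at 3.49 ± 0.328, Trpv5 at 2.79 ± 0.310, Slc8a1 at 2.16 ± 0.256 and Trpm6 at 1.03 ± 0.0743. The libraries of neighbours in this order overlapped for Calb1 and Slc12a3, for Wnk4 and Pvalb, and for Trpv5 and Slc8a1. In HUA, Trpv5 stood behind only Slc12a3, Calb1 and Wnk4 at 21.0 ± 3.45 FPKM, and Pvalb was at 8.67 ± 7.21. There, only Wnk4 and Trpv5 were neighbours whose libraries did not overlap. In XZSW, Slc12a3 (103 ± 21.5 FPKM), Calb1 (87.7 ± 28.1) and Wnk4 (63.2 ± 12.4) led and overlapped in turn, and Pvalb followed at 35.9 ± 12.8.

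HUA against CTL asks how the hyperuricemia model differed from control kidney. Of the 10 members, 2 rose and 1 fell at an adjusted p under 0.05 (edgeR's quasi-likelihood F-test, Benjamini-Hochberg over all 19772 genes), against 27.8% of all tested genes called in either direction, 14.9% higher and 12.8% lower. A count of 3 of 10 is near that background. The libraries of the 2 groups did not overlap for 2 members that were higher and 3 that were lower in HUA, against 15.1% and 15.2% of all tested genes. The members' median log2 change was 0.03, and that of all tested genes 0.06. With counts scaled by library totals, which moved the median of all genes by 0.33 on the log2 scale, 4 members were higher and 1 lower, Stk39 and Slc8a1 being added. Over all genes higher calls then outnumbered lower ones too (counts at the end).

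XZSW against HUA asks how the decoction group differed from the untreated model. Of the members, 5 rose and 1 fell, against 15.4% of all tested genes called, 7.09% higher and 8.34% lower. The libraries of HUA and XZSW did not overlap for 5 members higher and 1 lower in XZSW, against 8.98% and 9.08% of all tested genes. The median log2 change was 0.76 for the members and 0.01 for all tested genes. XZSW against CTL gave 3 members higher and none lower, against 4.99% of all tested genes called, 2.72% higher and 2.27% lower, and a median of 0.76 against 0.04. At an unadjusted p under 0.05 edgeR gave 0 members lower in XZSW against CTL, and DESeq2 called 0 lower. All XZSW libraries lay above all CTL libraries for 4 members and below them for none, against 10.3% and 11.3% of all tested genes. The 3 comparisons share their groups in pairs and are not independent of one another.

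**Figure D1:**
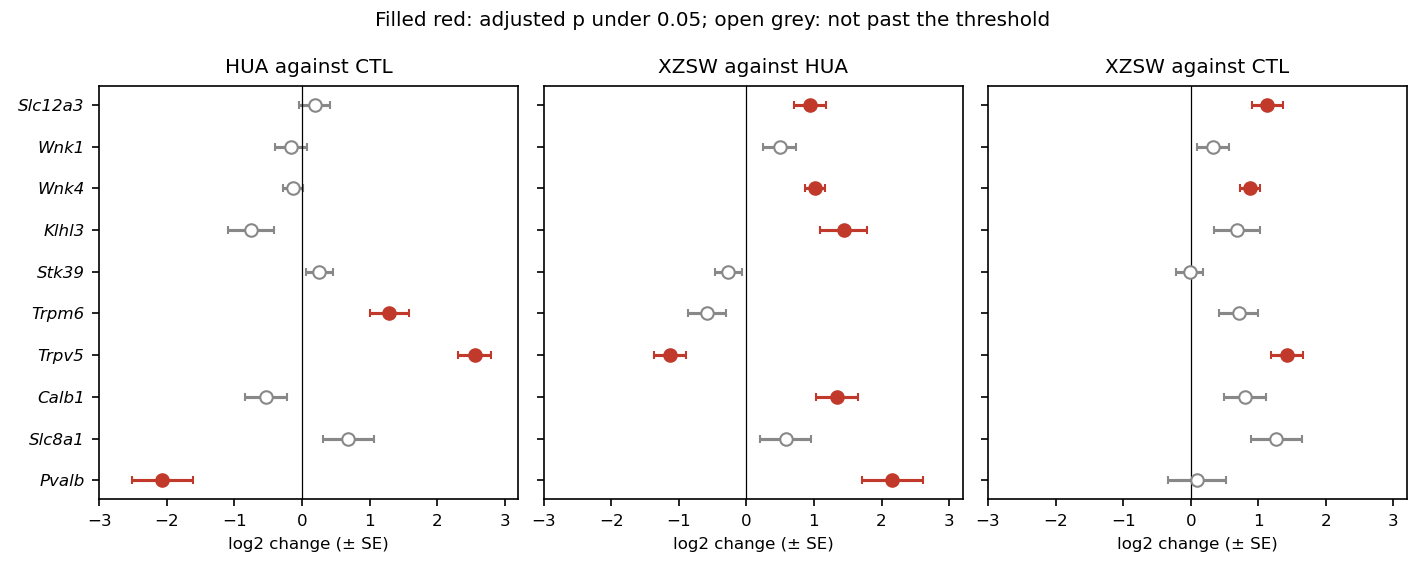
Log2 change (x axis, ± SE from the F statistic) of each of the 10 genes in the 3 comparisons, 4 libraries per group; filled red points passed an adjusted p of 0.05 and open grey points did not. Filled points number 3 in HUA against CTL, 6 in XZSW against HUA and 3 in XZSW against CTL.

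Slc12a3 (ENSMUSG00000031766, chr8:94329201-94366214, GRCm38, plus strand) encodes NCC itself. Its level was 632, 535, 641 and 458 CPM in CTL libraries 1 to 4, 769 (HUA1), 796 (HUA2), 402 (HUA3) and 617 (HUA4) in HUA, and 1224, 1558, 1336 and 852 in XZSW libraries 1 to 4. CTL and HUA overlapped, and the lowest XZSW library lay above the highest of either. The means were 566 ± 86.4, 646 ± 181 and 1242 ± 295 CPM (SD, n = 4). Slc12a3 rose 1.92-fold in XZSW against HUA (log2 0.94, SE 0.23, adjusted p = 0.0165) and 2.19-fold against CTL (log2 1.13, SE 0.23, adjusted p = 0.0212), and the log2 change in HUA against CTL was 0.19 (SE 0.23, adjusted p = 0.585). The call against HUA was lost without XZSW2, at a log2 change of 0.82 and adjusted p of 0.0523. The call against CTL was lost without CTL2, CTL3, CTL4 or XZSW3, with adjusted p of 0.056 to 0.0729.

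Wnk4 (ENSMUSG00000035112, chr11:101260567-101277409, GRCm38, plus strand), a WNK kinase of the distal nephron, had the smallest standard error of the members that changed with XZSW. It stood at 159, 158, 138 and 159 CPM in CTL, 133, 167, 122 and 137 in HUA, and 221, 268, 322 and 319 in XZSW, for libraries 1 to 4 of each group. All 4 XZSW libraries lay above the other 8, and CTL and HUA overlapped. Wnk4 rose 2.02-fold against HUA (log2 1.01, SE 0.15, adjusted p = 0.00132) and 1.84-fold against CTL (log2 0.88, SE 0.15, adjusted p = 0.0115). In HUA against CTL its log2 change was -0.13 (adjusted p = 0.545) with TMM scaling and 0.19 with library totals.

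Wnk1 (ENSMUSG00000045962, chr6:119923969-120038672, GRCm38, minus strand) is transcribed in many cell types and, in the distal convoluted tubule, from an internal promoter that gives a form without kinase activity. The table has 1 row for the gene and does not separate these forms. Its CPM ranged from 269 to 332 in CTL, from 172 to 418 in HUA and from 290.1 to 456 in XZSW. The HUA range held all CTL libraries and 3 of 4 XZSW libraries, and no comparison passed the test. Its log2 changes were -0.16 for HUA against CTL (adjusted p = 0.666, and 0.16 with library totals), 0.49 for XZSW against HUA (adjusted p = 0.193) and 0.33 for XZSW against CTL (adjusted p = 0.447). Without HUA1, the library at 418 CPM, the change in XZSW against HUA was 0.77 and passed (adjusted p = 0.0169).

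Wnk1 and Wnk4 were set against each other by their deposited FPKM, so the size of the ratio depends on the lengths behind those values. In CTL, Wnk1 was at 301 CPM and Wnk4 at 153 CPM, with longest annotated transcripts of 11330 and 4117 bases. The ratio of Wnk1 to Wnk4 FPKM was 0.356 as a geometric mean in CTL (range 0.308 to 0.390 over 4 libraries), 0.331 in HUA (0.227 to 0.569) and 0.242 in XZSW (0.165 to 0.309). The highest XZSW ratio, 0.309, was just over the lowest CTL ratio. The XZSW range overlapped the HUA range more widely.

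Klhl3 (ENSMUSG00000014164, chr13:58000228-58113592, GRCm38, minus strand), the adaptor through which WNK kinases are degraded, was at 37.0, 32.7, 31.1 and 28.8 CPM in CTL libraries 1 to 4. It was at 26.6, 28.0, 7.93 and 14.3 CPM in HUA, and at 49.2, 73.6, 52.8 and 32.7 CPM in XZSW. All HUA libraries lay below all CTL libraries, though the difference did not pass the test (log2 -0.75, SE 0.34, adjusted p = 0.115). Klhl3 rose 2.71-fold in XZSW against HUA (log2 1.44, SE 0.34, adjusted p = 0.014), again with no overlap. XZSW and CTL overlapped through XZSW4 (log2 0.68, adjusted p = 0.243).

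Stk39 (ENSMUSG00000027030, chr2:68210445-68472268, GRCm38, minus strand), the SPAK kinase between the WNKs and NCC, passed the test in none of the 3 comparisons. It varied from 40.7 to 42.5 CPM in CTL, from 41.4 to 58.0 in HUA and from 28.3 to 61.7 in XZSW. XZSW4 was the highest of all 12 libraries and XZSW2 the lowest. The log2 changes were 0.26 for HUA against CTL (adjusted p = 0.375), -0.27 for XZSW against HUA (adjusted p = 0.406) and -0.01 for XZSW against CTL (0.16 with library totals). With library totals Stk39 was higher in HUA than in CTL (log2 0.58, adjusted p = 0.046). Without XZSW4 it was lower in XZSW against HUA (log2 -0.53, adjusted p = 0.0398). The ratio of Slc12a3 to Stk39 FPKM was 4.81 to 7.01 in CTL, 3.52 to 7.55 in HUA and 6.16 to 24.6 in XZSW, so the groups overlapped.

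**Figure D2:**
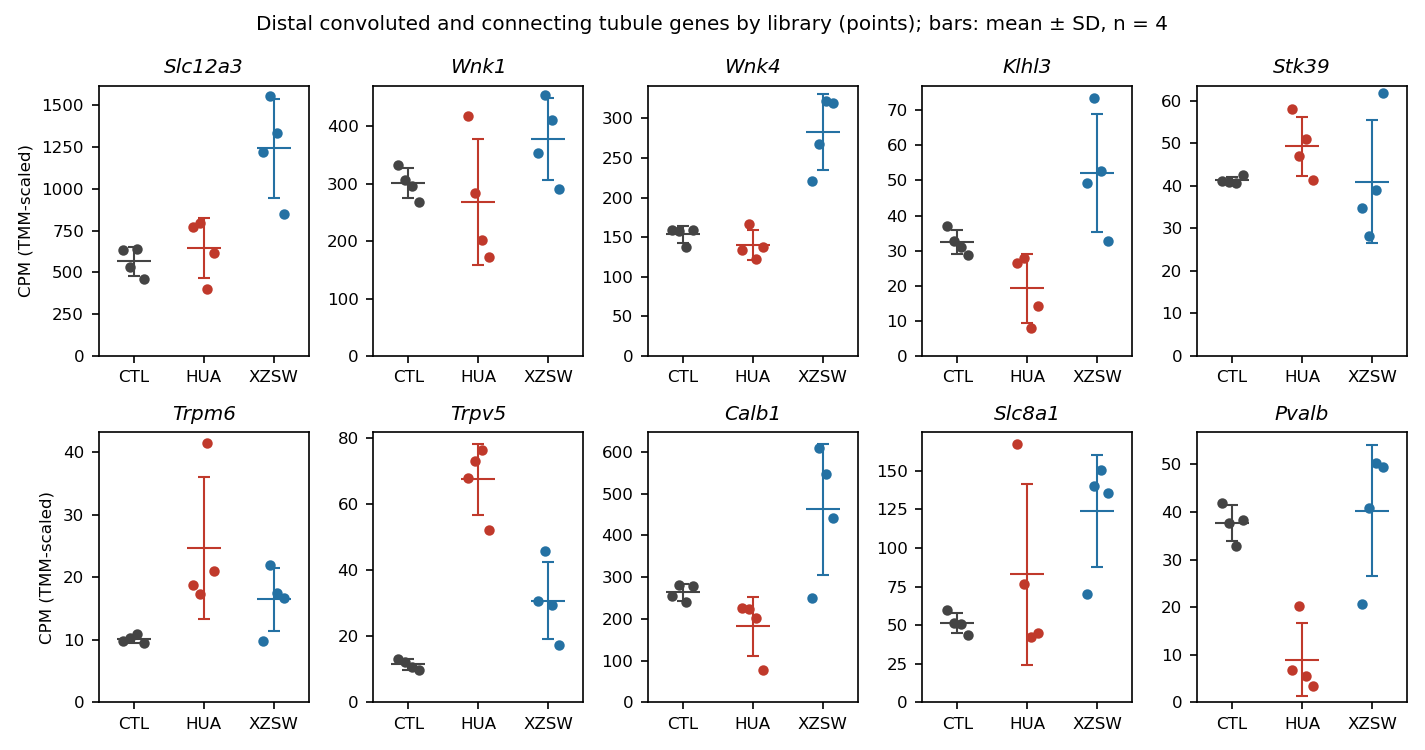
CPM with TMM scaling (y axis, linear from 0) of the 10 genes in each of 12 libraries, grouped as CTL, HUA and XZSW; points are libraries, bars the mean ± SD of 4. Trpv5 is high in all HUA libraries (52.3 to 76.5 CPM), Pvalb is low in them (3.44 to 20.2 CPM), and Slc12a3 and Wnk4 are above both other groups in all XZSW libraries.

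The regulators of NCC outside the members were read from a list of 14 genes, all tested. In HUA against CTL, 1 rose and 6 fell (median log2 change -0.48), against 27.8% of all tested genes called. With library totals 1 was higher and 3 were lower, while over all genes higher calls then outnumbered lower ones (counts at the end). Kcnj16 encodes a subunit of the basolateral potassium channel that sets the membrane voltage of the distal convoluted tubule. Kcnj16 fell from 1459 ± 140.4 to 729 ± 193 CPM (log2 -1.001, adjusted p = 0.00265). Kcnj10, another potassium channel gene of the list, had no call, at 62.2 ± 3.55 CPM in CTL and 63.8 ± 12.3 CPM in HUA (log2 0.04, adjusted p = 0.876). It is named after its values were seen. In CTL, mean levels were 293 FPKM for Kcnj16 and 9.08 FPKM for Kcnj10. Which segments the Kcnj16 RNA came from was not tested. Kcnj1, the potassium secretory channel ROMK of the thick ascending limb and connecting tubule, fell by 1.66 on the log2 scale (adjusted p = 0.0046). Hsd11b2, the enzyme that keeps cortisol-type steroids off the mineralocorticoid receptor, fell from 99.8 ± 7.74 to 42.1 ± 9.22 CPM (log2 -1.25, adjusted p = 0.00206).

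In XZSW against HUA, 3 of the 14 NCC regulators rose and none fell (median 0.28), against 15.4% of all tested genes called. At an unadjusted p under 0.05 edgeR gave 6 higher and 1 lower, and DESeq2 called 5 higher and 1 lower after adjustment. The shares of all tested genes under these settings are not given here. With library totals 3 were higher and 3 lower, while over all genes lower calls then outnumbered higher ones (counts at the end). Hsd11b2 rose to 170.3 ± 54.5 CPM (log2 2.02, adjusted p = 0.00047). Bsnd, which encodes barttin, rose from 29.2 ± 10.2 to 74.9 ± 30.0 CPM (log2 1.36, adjusted p = 0.00953). Kcnj1 rose by 1.38 on the log2 scale (adjusted p = 0.0219), a call lost without HUA4, XZSW3 or XZSW4 (log2 1.08 to 1.61 over all single omissions). Within low GC slope libraries Kcnj1 passed neither in XZSW against HUA (log2 0.33, adjusted p = 0.796) nor in HUA against CTL (log2 -1.11, adjusted p = 0.172), and within high GC slope libraries its change in XZSW against HUA was 1.99 (adjusted p = 0.0132). In XZSW against CTL, Kcnj16 fell (log2 -0.75, adjusted p = 0.047). That call of Kcnj16 was lost in 15 of 23 other settings, among them leaving out any CTL library, HUA2, XZSW1, XZSW3 or XZSW4.

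Trpv5 (ENSMUSG00000036899, chr6:41652173-41680769, GRCm38, minus strand), the apical calcium channel, rose in HUA and fell from there in XZSW. It stood at 13.2, 12.2, 10.8 and 9.72 CPM in CTL libraries 1 to 4. In HUA it stood at 68.1, 73.2, 76.5 and 52.3 CPM, and in XZSW at 30.8, 45.7, 29.4 and 17.4 CPM. The 3 groups did not overlap: every HUA library was above every XZSW library, and every XZSW library above every CTL library. Trpv5 rose 5.87-fold in HUA against CTL (log2 2.55, SE 0.25, adjusted p = 3.72e-05). It fell 2.19-fold in XZSW against HUA (log2 -1.13, SE 0.24, adjusted p = 0.00787) and was 2.68-fold higher in XZSW than in CTL (log2 1.42, SE 0.24, adjusted p = 0.0115).

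Trpv6, the close relative of Trpv5 and also an epithelial calcium channel, is not a member but was in the list of other calcium genes. It was at 1.06 to 1.78 CPM in CTL, 14.2 to 19.2 CPM in HUA and 3.53 to 5.47 CPM in XZSW, with no overlap among the 3 groups. It rose in HUA against CTL (log2 3.39, adjusted p = 3.04e-06), fell in XZSW against HUA (log2 -1.86, adjusted p = 0.000397) and was higher in XZSW than in CTL (log2 1.53, adjusted p = 0.00528). The transcripts of the pair shared no run of 50 identical bases in the GRCm38 annotation (GENCODE M21), and neither did those of Wnk1 and Wnk4, of Trpm6 and Trpm7, or of Stk39 and Oxsr1.

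Calb1 (ENSMUSG00000028222, chr4:15881264-15908064, GRCm38, plus strand), the calcium carrier inside the cell, had no call in HUA against CTL. It was at 255, 281, 239.7 and 279.9 CPM in CTL libraries 1 to 4. In HUA it was at 225, 224, 202 and 77.8 CPM, and in XZSW at 249.6, 608, 548 and 443 CPM. HUA lay below CTL throughout without passing the test (log2 -0.54, SE 0.31, adjusted p = 0.228), and HUA4 was far below the other 3. Calb1 rose 2.54-fold in XZSW against HUA (log2 1.34, SE 0.32, adjusted p = 0.0137), with XZSW1 inside the CTL range and the other 3 above it. The change against CTL was 0.81 on the log2 scale (adjusted p = 0.144).

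Slc8a1 (ENSMUSG00000054640, chr17:81373105-81738377, GRCm38, minus strand), the basolateral exchanger, varied widely within HUA. It was at 60.03, 51.4, 50.7 and 44.0 CPM in CTL, 168, 76.8, 42.6 and 44.8 in HUA, and 70.4, 140.1, 150.4 and 135 in XZSW, for libraries 1 to 4. HUA1 was the highest of all 12 libraries, and all XZSW libraries lay above all CTL libraries. No comparison passed: the log2 changes were 0.69 for HUA against CTL (adjusted p = 0.201), 0.58 for XZSW against HUA (adjusted p = 0.334) and 1.27 for XZSW against CTL (adjusted p = 0.0703). XZSW against CTL passed in 9 of 23 other settings, among them DESeq2's test (1.27, adjusted p = 0.0113), library totals (1.43, adjusted p = 0.039), only the 8 libraries compared (1.28, adjusted p = 0.00747), and leaving out HUA1 or HUA3. Leaving out any CTL or XZSW library gave 1.17 to 1.46 and no call. Without HUA1, XZSW against HUA passed at 1.16 (adjusted p = 0.0126), and HUA against CTL gave 0.12 (adjusted p = 0.764). By the longest annotated transcript of each gene (GENCODE M21), Slc8a1 was the longest of the members, at 18464 bases. HUA1 had the steepest rise of counts with gene length relative to the CTL mean. The part of length in the Slc8a1 value of HUA1 was not tested.

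All 11 other calcium genes were tested. In HUA against CTL 1 rose and 5 fell (median -0.55), against 27.8% of all tested genes called. With library totals 3 were higher and 5 lower, while over all genes higher calls then outnumbered lower ones (counts at the end). Besides Trpv6, which rose, the genes named next fell. Pth1r, the parathyroid hormone receptor, fell from 628 ± 44.2 to 333 ± 79.9 CPM (log2 -0.91, adjusted p = 0.00144). Vdr, the vitamin D receptor, fell from 361 ± 25.6 to 168 ± 52.9 CPM (log2 -1.10, adjusted p = 0.00399). Kl, klotho, a co-receptor for the phosphate hormone FGF23, fell from 548 ± 84.1 to 209.9 ± 97.6 CPM (log2 -1.38, adjusted p = 0.00401). The remaining genes that fell were Klk1, tissue kallikrein of the connecting tubule (log2 -1.01, adjusted p = 0.00611), and Cyp27b1, the enzyme that makes active vitamin D (log2 -2.13, adjusted p = 0.0307). Cyp27b1 is named because it completes the count, after its values were seen. Pth1r, Kl and Cyp27b1 are also made in the proximal tubule, whose markers were lower in HUA (above).

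In XZSW against HUA, 3 of the 11 calcium genes rose and Trpv6 fell (median 0.61), against 15.4% of all tested genes called. With library totals 2 were higher and 2 lower, while over all genes lower calls then outnumbered higher ones (counts at the end). Klk1 rose from 1140 ± 433 to 2687 ± 562 CPM (log2 1.24, adjusted p = 0.00498) and Kl rose to 574 ± 82.1 CPM (log2 1.45, adjusted p = 0.00706). Pth1r rose by less (log2 0.61, adjusted p = 0.0246), and its call was lost without HUA1, HUA3, XZSW2 or XZSW3 (log2 0.48 to 0.75 over all single omissions). In XZSW against CTL, Trpv6 alone of the 11 passed, against 4.99% of all tested genes called.

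Trpm6 (ENSMUSG00000024727, chr19:18749983-18892511, GRCm38, plus strand), the magnesium channel, was the lowest member in CTL by FPKM. It was at 9.75, 10.3, 10.9 and 9.47 CPM in CTL libraries 1 to 4, 18.8, 17.4, 41.5 and 21.1 in HUA, and 9.83, 22.03, 17.5 and 16.6 in XZSW. Every HUA library was above every CTL library, with HUA3 highest, and XZSW overlapped both. Trpm6 rose 2.45-fold in HUA against CTL (log2 1.29, SE 0.29, adjusted p = 0.00499) and by 0.95 to 1.46 on the log2 scale when any single library was left out. The log2 changes of -0.58 in XZSW against HUA (adjusted p = 0.186) and 0.71 in XZSW against CTL (adjusted p = 0.155) did not pass.

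Of 13 other magnesium genes 12 were tested, Kcna1 having too few counts. In HUA against CTL 1 rose and 2 fell (median -0.14), against 27.8% of all tested genes called. A count of 3 of 12 is near that background. In XZSW against HUA 2 rose and 1 fell (median 0.34), against 15.4% of all tested genes called. In XZSW against CTL none passed in edgeR, against 4.99% of all tested genes, and 0 had an unadjusted p under 0.05. None passed in DESeq2 either. Egf, the growth factor that stimulates TRPM6 and is made by distal convoluted and thick ascending limb cells, was at 704 to 988 CPM in CTL. In HUA it was at 202 (HUA1), 154 (HUA2), 30.9 (HUA3) and 15.2 (HUA4) CPM, and in XZSW at 285, 296, 552 and 625 CPM. Egf fell in HUA against CTL (log2 -3.08, SE 0.65, adjusted p = 0.00369) and rose in XZSW against HUA (log2 2.13, SE 0.62, adjusted p = 0.0355), with no overlap in either. The rise was lost without CTL2, HUA3, XZSW2, XZSW3 or XZSW4 (log2 1.77 to 2.71 over all single omissions). Within low GC slope libraries neither call held, with log2 changes of -2.07 (adjusted p = 0.179) and 0.53 (adjusted p = 0.822), while within high GC slope libraries the rise in XZSW against HUA was 3.14 (adjusted p = 0.0203). Pcbd1, a transcriptional cofactor, fell in HUA (log2 -1.08, adjusted p = 0.00137) and rose in XZSW against HUA (log2 1.15, adjusted p = 0.0024). Slc41a1, a sodium-magnesium exchanger, went the other way, with log2 changes of 0.78 (adjusted p = 0.00208) and -0.68 (adjusted p = 0.00932). The magnesium gene next in p in HUA against CTL was Cnnm2, a basolateral protein of the distal convoluted tubule (log2 -0.55, adjusted p = 0.112).

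**Figure D3:**
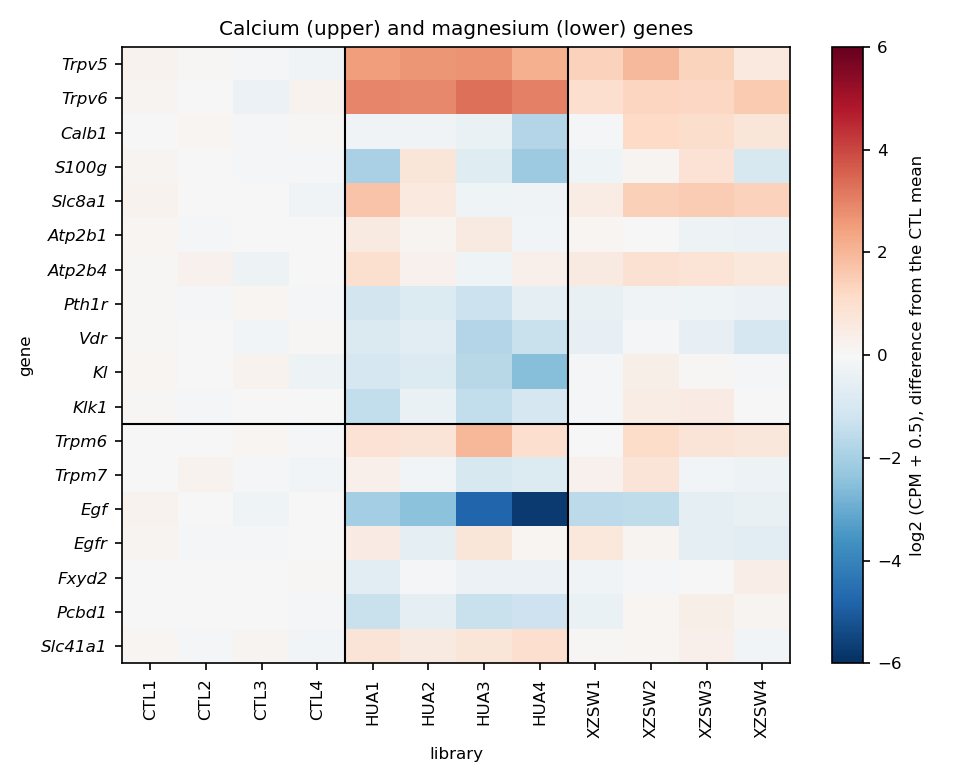
Log2 (CPM + 0.5) of calcium genes (upper block) and magnesium genes (lower block) in 12 libraries (columns), as the difference from the CTL mean (colour). Trpv5, Trpv6 and Trpm6 are above the CTL mean in all 4 HUA libraries, while Egf, Pth1r, Vdr, Kl and Klk1 are below it in all 4.

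Pvalb (ENSMUSG00000005716, chr15:78191114-78206400, GRCm38, minus strand) was the member that fell in HUA. It was at 41.8, 37.7, 32.8 and 38.3 CPM in CTL libraries 1 to 4. In HUA it was at 6.79, 20.2, 5.62 and 3.44 CPM, and in XZSW at 20.7, 40.8, 50.3 and 49.3 CPM. HUA overlapped neither other group, HUA2 and XZSW1 coming close to each other, and XZSW overlapped CTL. Pvalb fell 4.19-fold in HUA against CTL (log2 -2.07, SE 0.45, adjusted p = 0.00461) and rose 4.48-fold in XZSW against HUA (log2 2.16, SE 0.45, adjusted p = 0.00787). Without HUA2 these changes were -2.80 and 2.92. The log2 change in XZSW against CTL was 0.10 (SE 0.43, adjusted p = 0.923).

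Because skeletal muscle also makes parvalbumin, 8 muscle markers were read beside it. Their summed level was 1.63 to 2.05 CPM in CTL, 2.25 to 4.11 in HUA and 1.13 to 1.97 in XZSW, against 37.7 ± 3.70 CPM of Pvalb in CTL. Myh4 was at 0 in all HUA and XZSW libraries, Ckm in all HUA libraries and Tnnc2 in all CTL libraries. Only 4 of the 8 had enough counts to be tested, and 1 of them, Tnni2, was higher in HUA (adjusted p = 0.0291). The part of muscle RNA in the Pvalb values was not tested beyond these levels.

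Another list held 8 further genes that mark the distal convoluted and connecting tubule or are transcription factors there. Of these, 1 rose and none fell in HUA against CTL (median 0.11), against 27.8% of all tested genes called. At an unadjusted p under 0.05 edgeR gave 2 higher and 2 lower, and DESeq2 called 1 higher and 0 lower after adjustment. For these settings the shares of all tested genes are not given here. In XZSW against HUA 2 rose (median 0.59), against 15.4% of all tested genes called. In XZSW against CTL 1 rose (median 0.49), against 4.99% of all tested genes called. With library totals 2, 1 and 2 of the 8 were higher in these comparisons, and the counts over all genes are at the end. Gata3, a transcription factor of the connecting tubule and collecting duct, rose in HUA (7.24 ± 1.64 to 13.0 ± 5.01 CPM, log2 0.85, adjusted p = 0.0297), a call lost without CTL1, CTL2, CTL4, HUA3 or HUA4 (log2 0.67 to 1.08 over all single omissions). The call was also lost with GC slope kind as a factor (log2 0.72, adjusted p = 0.177) and within low GC slope libraries, where the change was 0.051 (adjusted p = 0.938). It was higher in XZSW than in CTL (log2 1.41, adjusted p = 0.0159), a call lost without CTL1 or CTL2. Emx1, a homeobox transcription factor, rose in XZSW against HUA (log2 1.20, adjusted p = 0.0196, lost without HUA3 or XZSW3), and so did Tmem52b, a membrane protein of the distal nephron (log2 1.21, adjusted p = 0.0341, lost without HUA1, XZSW2, XZSW3 or XZSW4). Slc16a7 (log2 -1.23, adjusted p = 0.108) and Tfap2b, the AP-2 beta factor of the distal convoluted tubule (log2 0.48, adjusted p = 0.121), did not pass in HUA against CTL. Principal cell markers are 7 genes of the neighbouring cells of the connecting tubule and collecting duct. They summed to 586 to 636 CPM in CTL, 251 to 459 CPM in HUA and 506 to 1104 CPM in XZSW. In XZSW against HUA 3 of 7 were higher, against 7.09% of all tested genes. In HUA against CTL 2 of 7 were lower, against 12.8% of all tested genes. None of the 7 was at 0 in all libraries of a group. Summed markers of the thick ascending limb (5 genes), which also makes Egf and Kcnj1, were 3691 to 4560 CPM in CTL. They were 2102 to 4897 CPM in HUA and 1112 to 5419 CPM in XZSW. Of these 5, Cldn10 alone was called in HUA against CTL (log2 -1.65, adjusted p = 0.00471). Those of intercalated cells (5 genes) summed to 162 to 199, 117 to 173 and 187 to 279.9 CPM in the same order. In HUA against CTL Slc4a1 (log2 -3.16) and Slc26a4 (-1.30) fell, while Atp6v0d2 (0.70) and Foxi1 (0.70) rose. That is 4 of 5 called, against 27.8% of all tested genes. Smooth muscle and pericyte markers (5 genes) summed to 46.0 to 72.6, 118 to 495 and 40.8 to 82.6 CPM. Macrophage markers (5 genes) summed to 43.7 to 65.9, 142 to 279.7 and 29.6 to 107.5 CPM. In HUA against CTL 4 of the former and 3 of the latter rose, against 14.9% of all tested genes. Among macrophage markers Cd14 rose from 5.34 ± 1.87 to 134 ± 80.1 CPM (adjusted p = 3.59e-05). Csf1r was at 46.3 ± 7.05 CPM in CTL and 52.1 ± 20.5 CPM in HUA, without a call. None of the markers in these lists was at 0 in all libraries of a group. Their part in the changes of members was not tested.

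The members were also compared within libraries of like GC slope, a split chosen after the data were seen. Among the high GC slope libraries (XZSW3 and XZSW4 against HUA2, HUA3 and HUA4), the log2 changes of the 6 members called in XZSW against HUA kept their direction. Wnk4 (1.18, adjusted p = 0.00454), Calb1 (1.56, adjusted p = 0.0353), Pvalb (2.36, adjusted p = 0.0259) and Trpv5 (-1.53, adjusted p = 0.0103) passed there, as did Slc8a1 (1.38, adjusted p = 0.0184). Slc12a3 (0.85, adjusted p = 0.0747) and Klhl3 (1.35, adjusted p = 0.0557) did not.

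Among the low GC slope libraries, XZSW1 and XZSW2 stood against HUA1 alone, which is assumed to vary like the other groups, and no member passed in XZSW against HUA. The log2 changes there were 0.85 for Slc12a3, 0.87 for Wnk4 (adjusted p = 0.0538), 0.93 for Calb1, 2.18 for Pvalb, 1.21 for Klhl3 and -0.83 for Trpv5. In HUA against CTL, with HUA1 alone against all CTL libraries, Trpv5 was higher at 2.57 (adjusted p = 0.00048), while Trpm6 (0.90, adjusted p = 0.185) and Pvalb (-2.47, adjusted p = 0.0709) did not pass. Slc8a1 was higher there at 1.70 (adjusted p = 0.00922). In XZSW against CTL, 4 members were higher within low GC slope libraries: Slc12a3 (1.30, adjusted p = 0.0191), Wnk4 (0.67, adjusted p = 0.0221), Trpv5 (1.73, adjusted p = 0.00571) and Slc8a1 (1.03, adjusted p = 0.0464). Of the list genes named above as changed, Trpv6, Pth1r, Pcbd1, Slc41a1 and Klk1 also passed in HUA against CTL within low GC slope libraries, and Hsd11b2, Kcnj16, Kcnj1, Egf, Vdr, Kl and Gata3 did not. In XZSW against HUA, Bsnd, Trpv6 and Emx1 passed there, and Hsd11b2, Kcnj1, Pcbd1, Slc41a1, Egf, Klk1, Kl, Pth1r and Tmem52b did not. Cyp27b1 was not refitted. The shares of all tested genes called in these within-kind fits are not given here, so their counts are not set against a background.

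**Figure D4:**
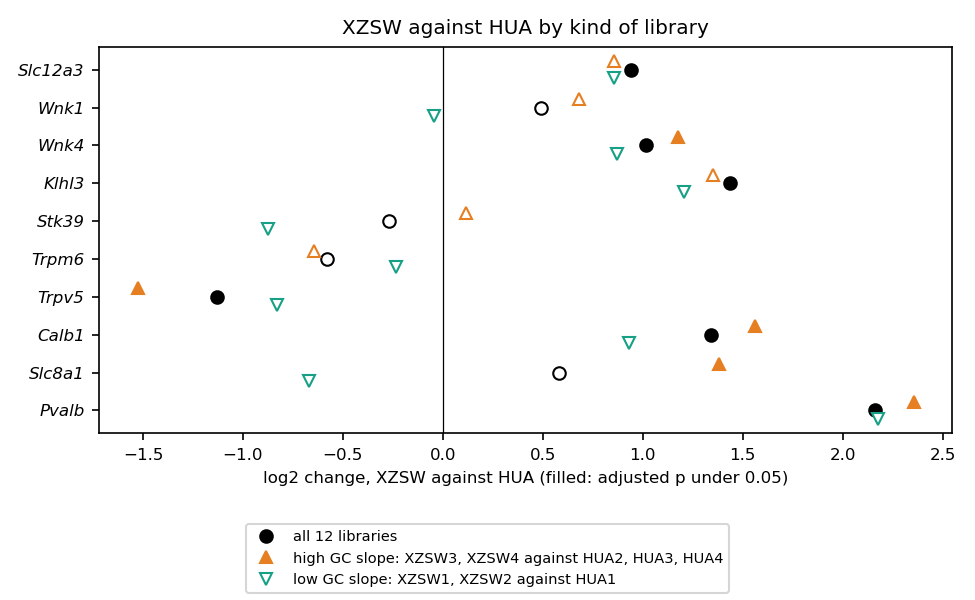
Log2 change in XZSW against HUA (x axis) of the 10 genes over all 12 libraries (circles), within the 5 high GC slope libraries (up triangles) and within 3 low GC slope libraries (down triangles); filled symbols passed an adjusted p of 0.05. The 6 genes called over all libraries lie on the same side of 0 in each, while Slc8a1 lies at 1.38 and at -0.67 within the kinds.

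Genes with the pattern nearest to that of Slc12a3 over the 12 libraries were sought by the root mean square difference of centred log2 (CPM + 0.5), among 10763 named genes with a mean of at least 5 CPM. The nearest were Tbc1d24 (0.252), Grk3 (0.297), Ints6l (0.299), Vamp1 (0.309) and Myom2 (0.312), against a median of 0.859 over the candidates. Wnk4 stood at 0.407, Slc8a1 at 0.494, Klhl3 at 0.704, Trpv5 at 1.39 and Pvalb at 1.66 by the same measure. Among the nearest to Calb1 were Spp2 (0.309), Ehd3 (0.344), Slc5a2 (0.368), the glucose transporter of the early proximal tubule, and AI838599 (0.385), against a median of 0.841. Wnk1 at 0.502 and Wnk4 at 0.525 were the members nearest to Calb1. These distances are descriptions over libraries that share groups, GC slope and length slope.

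Annotated overlaps with other genes were small. Gm16199 on the opposite strand of Wnk1 had 0.119% of its counts, Gm11615 on the opposite strand of Wnk4 had 0.271% and Mir874, within Klhl3 on the same strand, 0.0304%. The other 7 members overlapped no other gene of the table.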

How the data were processed

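Kidney RNA of 12 mouse samples was sequenced in strand-specific libraries, per the labels' protocols. The submitters' processing notes name cutadapt 1.9 (a read trimmer), HISAT2 2.2.1 (an aligner) and the build GRCm38. How the authors counted reads and filtered genes is not given in the sources used here. Raw counts and FPKM of each sample stand side by side in the deposited table, per the file headers. Counts of replicates varied beyond counting error, at 23.9 to 414 chi-square units per degree of freedom between libraries of a group, so none was merged.

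Genes were kept by filterByExpr (19772 of 33188), scaled by TMM (factors 0.856 to 1.15) and tested by edgeR's quasi-likelihood F-test on all 12 libraries, with Benjamini-Hochberg adjustment over all tested genes and a threshold of 0.05. Standard errors come from the F statistic. Rose and fell are used only of genes past the threshold. Levels are CPM with TMM, as mean ± SD of 4 libraries. Deposited FPKM served to order genes by level and for a limma test on log2(FPKM + 1), which understates changes of low genes, with 0.1 in place of 1 as a further setting.

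The members and lists (4 of pathway genes, 8 of markers) were chosen with earlier results of these data known. So were the named list genes (the 4 smallest p in HUA against CTL and the 2 smallest in XZSW against HUA per list) and the GC slope threshold of 0.15 on the log2 scale per 10% GC. Some genes that this rule names are not reported here. The within-kind fits, the promoter motifs and the 0.5 CPM offset of the pattern distance were added later. The fit was run on simulated data with 200 changed genes. That simulation gave all genes the same spread beyond counting error and held no GC or length slope. It therefore does not test how the fit handles these features of the real libraries. Alternatives were DESeq2's size factors and test, library totals, other filters, only the 8 libraries compared, a replicate block, GC slope kind as a factor and leaving out each library. Tests used edgeR 4.0.16, limma 3.58.1 and DESeq2 1.42.0 in R 4.3.3. Tables and figures used pandas 2.3.3, numpy 2.4.6 and matplotlib 3.10.9 in Python 3.11.15.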

Additional observations from a re-analysis of the deposited data

Results flagged for a closer look

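In 3 of the 30 groups of 4 libraries (10 genes in 3 groups), 1 library lay far from the other 3 on the log2 CPM scale by Dixon's test, where chance gives about 1 in 20 groups. Wnk4 was at 137.9 CPM in CTL3, while the other CTL libraries lay between 158 and 159 CPM. Calb1 was at 77.8 CPM in HUA4, against 202 to 225 CPM in the other HUA libraries. Slc8a1 was at 70.4 CPM in XZSW1, against 135 to 150.4 CPM in the other XZSW libraries.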

How the results depend on the processing

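Trpv5 kept its direction and call in HUA against CTL (log2 2.48 to 2.89) and in XZSW against CTL (1.17 to 1.73) under all 23 alternatives, as did Wnk4 in XZSW against CTL (0.67 to 1.09). Counts of members moved as follows. In HUA against CTL, 4 were higher with library totals, 2 were lower with a replicate block (Klhl3 added, log2 -0.87, adjusted p = 0.0423) and 0 were lower within low GC slope libraries. In XZSW against HUA, 2 were higher with only the 8 libraries compared, where Slc12a3, Calb1 and Klhl3 had adjusted p of 0.0538, 0.0519 and 0.051, and 0 were higher and 0 lower within low GC slope libraries. In XZSW against CTL, 6 were higher with only the 8 libraries compared. Of these settings, all-gene counts are given below for library totals alone, so the other counts are not set against a background. Leaving out 1 library gave 2 to 2 higher and 1 to 1 lower in HUA against CTL, 4 to 7 higher and 1 to 2 lower in XZSW against HUA, and 2 to 4 higher and 0 to 0 lower in XZSW against CTL; the 2 lower came without XZSW4. The cause was not tested, save that the within-kind fits hold fewer libraries.

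Changes that reversed had not passed the test. For Wnk1 in HUA against CTL, the log2 change was 0.16 with library totals, 0.10 and 0.11 by limma on log2(FPKM + 1) and log2(FPKM + 0.1), 0.028 without HUA4 (-0.42 to 0.028 over single omissions), 0.18 with GC slope kind as a factor and 0.47 within low GC slope libraries. For Wnk4 it was 0.19 with library totals and 0.20 and 0.21 by limma. Tfap2b was at -0.43 within low GC slope libraries. In XZSW against HUA, Wnk1 was at -0.046 and Slc8a1 at -0.67 within low, and Stk39 at 0.12 within high GC slope libraries. In XZSW against CTL, Stk39 was at 0.16 with library totals, 0.031 without a low-count filter, 0.14 and 0.15 by limma, and between 0.0033 and 0.13 without CTL4, any HUA library, XZSW1, XZSW2 or XZSW3 (-0.28 to 0.13 over single omissions). Pvalb was at -0.25 with the GC factor, -0.29 within low GC slope libraries and -0.015 without XZSW3 or XZSW4 (-0.015 to 0.31 over single omissions). Vdr lost its HUA call with the GC factor.

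Deviations of same-numbered libraries from their group means had correlations of -0.04 to 0.24. Differently numbered libraries were not compared, so whether the numbers pair the samples was not settled. The replicate block is therefore given as an alternative only.
Library totals moved the median of 14643 genes by 0.33, -0.17 and 0.16 on the log2 scale in the 3 comparisons. Over all genes, higher and lower calls were then 5779 and 1320 in HUA against CTL (2950 and 2538 with TMM), 836 and 2714 in XZSW against HUA (1402 and 1649) and 1221 and 224 in XZSW against CTL (538 and 449). DESeq2's test called 1408 higher and 1009 lower in the last.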
